A study of Mus musculus with 20 samples.

Results

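Atria of wild-type newborn mice were compared with whole hearts of wild-type mouse embryos, in 7 of the 20 libraries of the series. The 7 libraries were taken by their labels, without use of any measured value. They are 3 libraries of atria from pups at postnatal day 3 (P3) and 4 libraries of hearts from embryos at stage E13.5 (mid-gestation), each from the tissue of 1 animal of the strain C57BL/6N. All 7 animals were labelled wild-type. They served as controls of mice in which Creld1 is deleted in the myocardium under a MyHC (myosin heavy chain) driver, and the labels do not say whether a wild-type animal carried a Cre or a floxed allele. E13.5 replicates 2 and 3 came from 1 litter, replicates 1 and 4 from a litter each. The 3 pups came from 3 litters, and pups 2 and 3 carry the same parent number. E13.5 replicates 1 to 3 were prepared in 2016, and E13.5 replicate 4 and all atria in 2018. The embryonic tissue was the whole heart, with its ventricles, outflow tract and cushions, and the postnatal tissue was atria alone. Stage and dissection therefore changed together and cannot be told apart in this contrast, and the year of preparation mostly changed with them. Ventricles of the same 3 pups give the level of a gene in the other chambers at P3.

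An embryonic heart at midgestation is a growing organ of dividing cardiomyocytes, perfused by blood whose red cells still include a primitive, yolk sac-derived generation. After birth cardiomyocytes leave the cell cycle, build up the sarcoplasmic reticulum calcium store and turn from sugar toward fat as fuel, while fibroblasts fill in the matrix between them. Atrial muscle keeps a programme of its own, with atrial myosin light chains, the calcium pump regulator sarcolipin, acetylcholine-gated potassium channels and granules of atrial natriuretic peptide, and it lacks most of the ventricular light chain and Iroquois and Hey2 repressor programme.

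The deposited values are a normalized signal on a linear scale, not counts, and are given below as signal. Estimated total counts of the 7 libraries ranged from 5138353 (atrial replicate 2) to 15885519 (atrial replicate 1), and 18357 to 22819 genes had a value above 0. Atrial replicate 3 stood apart. Mitochondrially encoded transcripts made up 10.4% of its signal, against 31.3% in each of the other atrial libraries and 20.4% to 22% in the hearts, and its deviations rose with the GC content of genes by 0.84 log2 units per 10 percentage points, against -0.433 and -0.407 in atrial replicates 1 and 2. Atrial replicate 2 held Myl2, the ventricular myosin light chain gene, at 9240, against 40.8 and 21.7 in atrial replicates 1 and 3. Pup 2 gave 2 libraries whose sex-linked transcripts did not match. Its atria held Xist at 2880 and its ventricles at 74.9, with the Y-linked Ddx3y at 1.83 and 465, so that comparisons within pups are given with and without pup 2. Among the hearts, E13.5 replicate 2 had low Xist (17.8) and high Ddx3y (487), unlike the others. Atrial replicates 1 to 3 all held high Xist (3600, 2880 and 6120) and low Ddx3y (1.17, 1.83 and 4.93). Creld1 itself was 66.0, 92.2, 60.8 and 34.0 in the hearts and 105, 21.6 and 146 in the atria, with a log2 difference of 0.22 (not called, limma adjusted p = 0.91).

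Defining atrial transcripts were abundant in all 3 libraries labelled atria. Sln, which encodes sarcolipin, was 17600, 9150 and 19100 in atrial replicates 1 to 3 and 267, 171 and 302 in the ventricles of the same pups. Myl7, the atrial light chain gene, was 29100, 20000 and 20300 in atria and 571, 537 and 809 in ventricles. Bmp10, a growth factor gene of the right atrium, was 1120, 978 and 1760 in atria and at most 10.4 in ventricles. Every atrial library thus carried these 3 genes far above its ventricular partner, atrial replicate 2 included, although that library alone also held ventricular transcripts.

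Of 26440 genes, 15500 had a signal of at least 10 in at least 3 of the 7 libraries and were tested as log2(signal + 1) by limma. The test called 161 genes higher in atria (1.04% of those tested) and 67 lower (0.432%), 228 in all (1.47%), at a Benjamini-Hochberg adjusted p under 0.05. All 228 differed by at least 2-fold on the log2(signal + 1) scale, and in all of them the 3 atrial libraries lay on 1 side of the 4 hearts. A gene below 10 in all 4 hearts could be tested only if all 3 atria were at 10 or more. For such genes, Sbk3, Higd1b, Klf15, Dbp and Ahsg among them, atria above all hearts were set by this filter. Hba-x, Hbb-bh1 and Col2a1, below 10 in all 3 atria, were tested only through the hearts. The median log2 difference was 3.24 among the higher genes and -2.71 among the lower, against 0.05 over all genes tested. At an unadjusted p under 0.05 there were 1304 higher and 1111 lower genes, and the groups did not overlap in 1286 genes with higher atria (8.3%) and 1184 with lower atria (7.64%). The share of higher genes among the calls was 70.6%, and it depended on the scaling: it was 50.2% when signals were scaled to equal totals (137 higher and 136 lower) and 60% when the GC trend of each library was removed (216 and 144).

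The counts rest on few libraries. Leaving out an E13.5 heart kept 61 to 78 of the 228 calls. Leaving out atrial replicate 1 kept 37, atrial replicate 2 kept 61 and atrial replicate 3, the library with the GC offset, kept 158 of them, with 17 and 20, 33 and 41, and 196 and 169 genes called higher and lower in all. Of the 228, 31 were called in all 7, and 46 in none. The 31 include Sln, Bmp10, Dkk3, Dpt, Dcn, Aspn, Col14a1, Igfbp7 and Acsl1 on the higher side and Hba-x, Hbb-y, Hbb-bh1, Hmga2, Sox11, Cdkn1c, Cited1, Casq1, Pgam1 and Birc5 on the lower side. Below, the number of these 7 fits that called a gene is given with it. Counts of called list members are to be read against 1.04% of all genes tested called higher and 0.432% called lower. With the libraries prepared in 2018 alone, 3 atria against 1 heart, limma called 0 genes, with 807 at an unadjusted p under 0.05. Removing the GC trend of each library ended the calls of Myl7 (limma adjusted p = 0.103), Acaa2 (0.0912), Cox8b (0.0612), Klf15 (0.0536) and Kcnj11 (0.0518). Scaling to equal totals ended those of Tbx5, Mybphl, Stard10, Kcnj11, Acadvl, Acaa2, Ckm, Mb, Mfap5, Eln, Msln, Rgs5, Tmem100, Heyl, Prrx2, Igf2bp2, Lin28b, Dlk1, Ube2c, Hist1h2ap, Car2, Myh8 and Klf9, with limma adjusted p from 0.0523 (Tmem100) to 0.0924 (Hist1h2ap). In the plot of level against difference Hba-x and Hbb-y lie farthest below 0, and Sln and Dpt farthest above 0 among genes of at least median level.

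**Figure D1:**
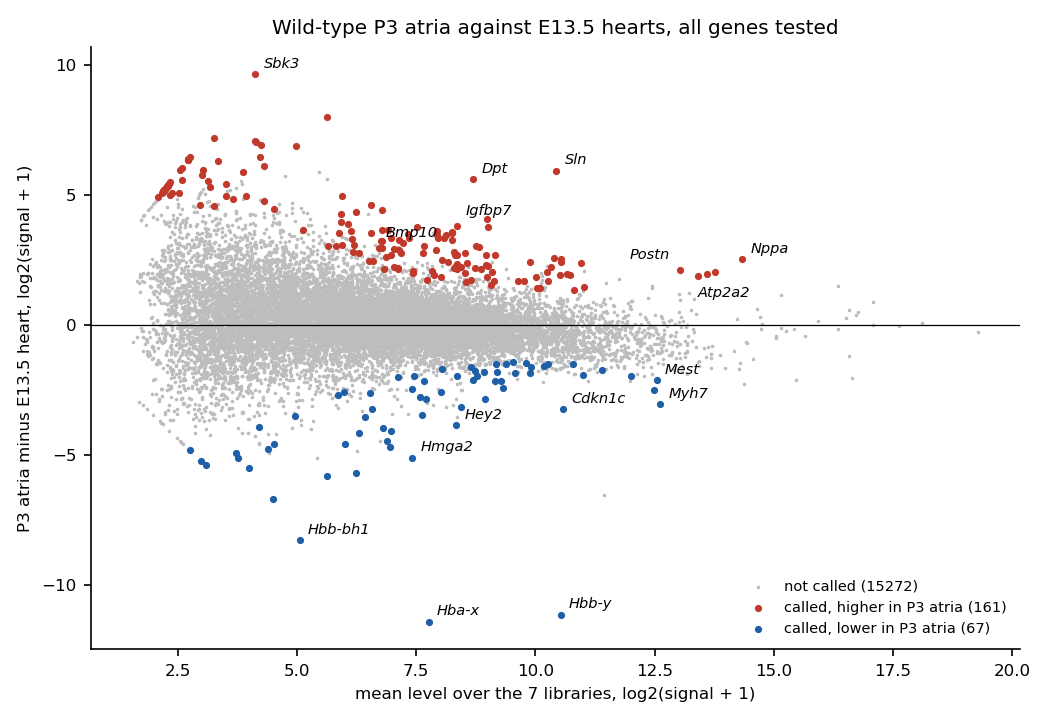
Log2 difference between P3 atria and E13.5 hearts (vertical axis) against the mean log2(signal + 1) over the 7 libraries (horizontal axis) for the 15500 genes tested, with the 161 genes called higher in red and the 67 called lower in blue. Hba-x and Hbb-y lie lowest, at -11.43 and -11.16, and Sln stands at 5.93 among the abundant genes.

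The embryonic globin genes Hba-x and Hbb-y had the largest differences among the named genes. Hba-x, Hbb-y and Hbb-bh1 encode the zeta, epsilon-y and beta-h1 chains of the hemoglobin of primitive red cells, and all 3 were lower in atria. Of the 4 adult globin genes 1 was called lower, and Car2, which encodes the carbonic anhydrase of red cells, was the 1 called gene among 10 tested erythroid genes.

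Hba-x (chromosome 11, 32276400 to 32278116, plus strand of GRCm38, in GENCODE) was 13000, 2580, 10300 and 5130 in E13.5 replicates 1 to 4 and 2.73, 0 and 2.51 in atrial replicates 1 to 3. The log2 difference was -11.43 (SE 0.63, limma adjusted p = 1.31e-05). Hbb-y (chromosome 7, 103851749 to 103853216, minus strand) was 82900, 17400, 73400 and 26000 in hearts and 29.1, 11.1 and 14.7 in atria, a log2 difference of -11.16 (SE 0.56, limma adjusted p = 8.99e-06). Hbb-bh1 was 873, 154, 498 and 342 in hearts and 0, 0 and 0.979 in atria, a log2 difference of -8.28 (SE 0.76, limma adjusted p = 0.000827). All 3 were called in all 7 fits that left out 1 library. The hearts themselves spread by about the same pattern for each of the 3 genes, highest in replicates 1 and 3 and lowest in replicate 2, and even replicate 2 stood far above every atrial library. In the ventricles of the same pups Hba-x was 0, 2.65 and 0, and Hbb-y 1.88, 14.9 and 0.

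The adult globin genes, whose near-identical copies can share reads so that their single values are uncertain, remained abundant in atria. Hba-a1 was 25100, 6630, 16300 and 7630 in hearts and 2100, 1740 and 2590 in atria, a log2 difference of -2.50 (SE 0.48, limma adjusted p = 0.0372, called in 1 of 7 fits and up to 0.126 without atrial replicate 1). Hba-a2 had -2.28 (limma adjusted p = 0.0684) and Hbb-bt -1.90 (limma adjusted p = 0.0547). Hbb-bs was 17600, 6630, 7640 and 3730 in hearts and 4530, 5260 and 5170 in atria, so that the groups overlapped, and its difference was -0.61 (not called, limma adjusted p = 0.589). The 3 atria lay close together for all 4 genes, while the hearts differed several-fold. Car2 was 401, 246, 454 and 212 in hearts and 86.9, 83.8 and 67.4 in atria (log2 difference -1.97, limma adjusted p = 0.0428, called in 1 of 7 fits, up to 0.124 without atrial replicate 1). Summed over the erythroid list the signal was 654 to 1795 in hearts and 419 to 1044 in atria, and Alas2 and Slc4a1, which define red cells, did not pass the test, with log2 differences of -1.32 and -2.62. In bulk tissue, fewer cells of a type and less RNA per cell cannot be told apart.

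**Figure D2:**
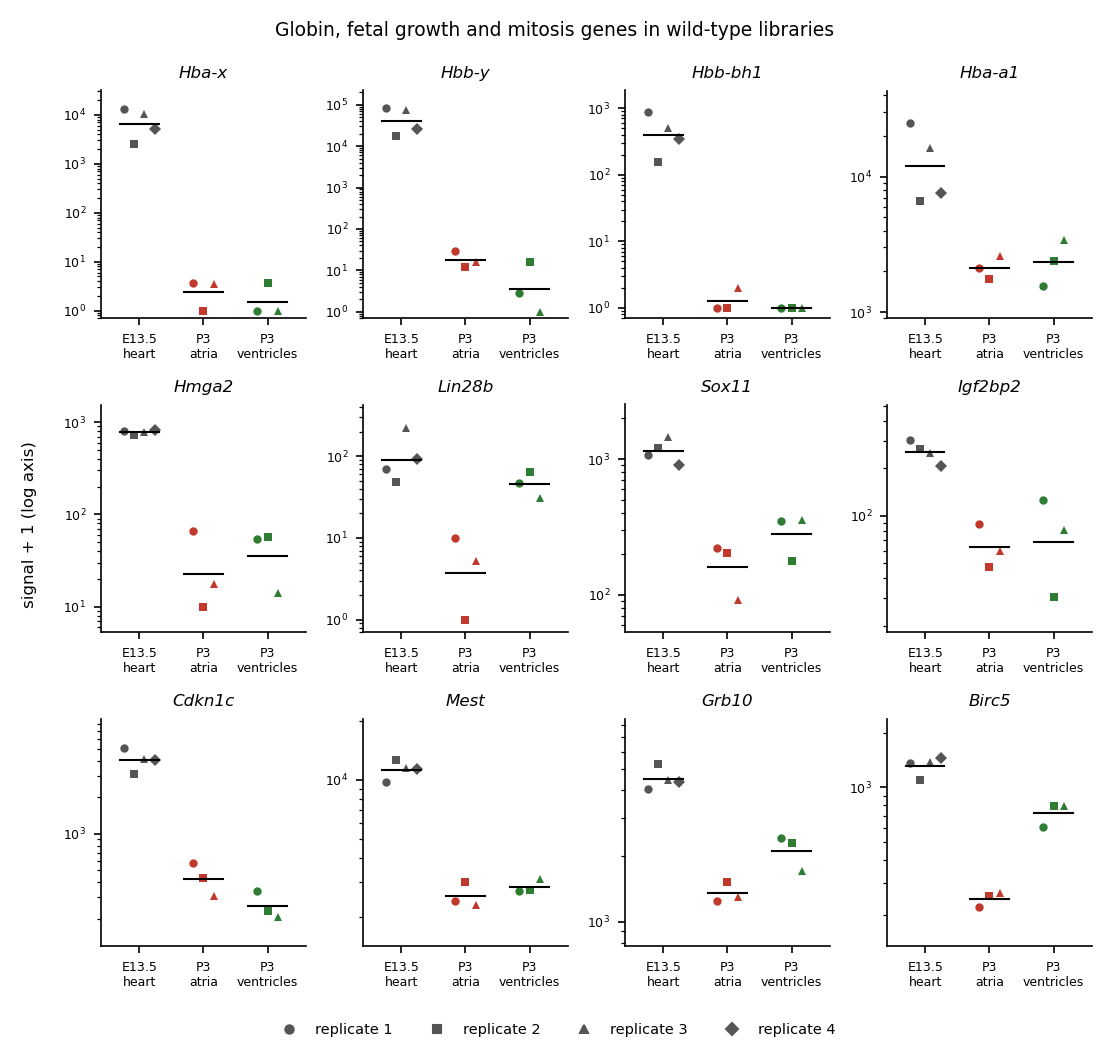
Signal + 1 (log axis) of 4 globin genes, 4 fetal genes of the Hmga, Lin28, Sox and Igf2bp families, 3 imprinted genes and the mitosis gene Birc5 in E13.5 hearts, P3 atria and P3 ventricles of wild-type mice. Symbols mark the replicates and lines the geometric mean of signal + 1. In all 12 panels the 3 atria lie below the 4 hearts, from a ratio of means of 4430 for Hba-x to 3.37 for Grb10.

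Of 20 tested atrial chamber genes, 11 were called higher and 0 lower, with a median log2 difference of 1.83. In 15 of the 20 the groups did not overlap, with higher atria, against 8.3% of all genes tested. The called genes were Sln, Kcnj3, Bmp10, Stard10, Mybphl, Fgf12, Dkk3, Nppa, Kcnj5, Myl7 and Tbx5. The median of the same genes in ventricles against the hearts, which are the same control libraries, was -1.03. The lists were drawn up with earlier results of these data known. Without atrial replicates 1, 2 and 3 in turn, 3, 4 and 12 members were called higher, and the median was 1.73, 2.04 and 1.98. The windows of 200 bases upstream of the transcription starts of 4 of these genes are shown because they differ in level between atria and both other tissues. Capitals mark GATAA, the core of a GATA factor site, AAGTG, the core of an Nkx2-5 site, and the CArG box of serum response factor, on either strand. The sequences and starts are from RefSeq, build GRCm38.p6, written 5′ to 3′ in the direction of transcription.
Nppa, chr4:148000522-148000721, plus strand: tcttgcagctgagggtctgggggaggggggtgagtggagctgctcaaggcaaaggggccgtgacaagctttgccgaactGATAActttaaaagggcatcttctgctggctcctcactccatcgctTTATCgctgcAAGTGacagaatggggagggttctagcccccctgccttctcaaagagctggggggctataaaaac
Bmp10, chr6:87428794-87428993, plus strand: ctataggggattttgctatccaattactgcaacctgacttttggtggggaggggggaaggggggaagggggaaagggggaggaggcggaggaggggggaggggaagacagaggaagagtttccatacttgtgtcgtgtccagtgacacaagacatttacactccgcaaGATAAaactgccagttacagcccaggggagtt
Myl7, chr11:5898783-5898982, minus strand: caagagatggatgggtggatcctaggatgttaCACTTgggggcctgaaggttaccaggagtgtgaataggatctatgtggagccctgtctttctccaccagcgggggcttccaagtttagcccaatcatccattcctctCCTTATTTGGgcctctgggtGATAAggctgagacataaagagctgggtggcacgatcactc
Mybphl, chr3:108364711-108364910, plus strand: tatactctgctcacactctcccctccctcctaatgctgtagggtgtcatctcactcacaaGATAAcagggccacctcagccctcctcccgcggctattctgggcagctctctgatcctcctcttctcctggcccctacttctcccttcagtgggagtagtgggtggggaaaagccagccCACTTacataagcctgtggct

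GATAA was present in all 4 windows, on both strands in Nppa, at 32 to 28 bases before the start in Bmp10 and at 41 to 37 in Myl7, against 18.1% of 32851 promoter windows of the same length. AAGTG was present in Nppa, Myl7 and Mybphl, against 34% of windows. The CArG box was found only in Myl7 among the 4, at 61 to 52 bases before the start, against 1.18% of windows. No 2 matches overlapped. A match is a description of the letters, and its use in these hearts was not measured.

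Sln (chromosome 9, 53850164 to 53854560, plus strand) was 240, 168, 308 and 257 in the hearts, against the 9150 to 19100 in atria. The mean rose from 243 ± 57.8 (SD, n = 4) to 15300 ± 5360 (SD, n = 3), 62.8 times as high, with a log2 difference of 5.93 (SE 0.35, limma adjusted p = 1.9e-05, called in 7 of 7 fits). In ventricles Sln stood at the level of the hearts. Bmp10 (chromosome 6, 87428994 to 87437677, plus strand) was 116, 60.6, 146 and 120 in hearts, and its mean was 11.6 times as high in atria (log2 difference 3.55, SE 0.40, limma adjusted p = 0.00294, 7 of 7 fits). Dkk3, which encodes a secreted Dickkopf family protein, was 860, 574, 406 and 736 in hearts and 3990, 2840 and 4530 in atria (log2 difference 2.58, SE 0.34, limma adjusted p = 0.00605, 7 of 7 fits). For these 3 genes the lowest atrium lay well above the highest heart, and all 3 also lay above the ventricles of the same pups.

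Nppa (chromosome 4, 148000722 to 148002079, plus strand), the gene of atrial natriuretic peptide, was 7360, 9480, 11200 and 11500 in hearts and 45700, 32900 and 116000 in atria. Its mean was 6.56 times as high in atria, with a log2 difference of 2.52 (SE 0.52, limma adjusted p = 0.0443). It was called in 1 of 7 fits, and its adjusted p was 0.126 without atrial replicate 1, 0.0561 without atrial replicate 2 and 0.00336 without atrial replicate 3. Atrial replicate 3 was the highest, and its removal lowered the difference to 1.99 and narrowed the spread. Myl7 (chromosome 11, 5896637 to 5898782, minus strand) was 7190, 3800, 7030 and 7580 in hearts, a log2 difference of 1.88 (SE 0.40, limma adjusted p = 0.049, 1 of 7 fits, up to 0.16 without atrial replicate 1). Mybphl, which encodes a myosin-binding protein of atrial and conduction muscle, was 85.2, 46.7, 161 and 108 in hearts and 497, 597 and 2720 in atria (log2 difference 3.34, SE 0.61, limma adjusted p = 0.0327, 2 of 7 fits, up to 0.0803 without E13.5 replicate 2). The T-box factor gene Tbx5 was 207, 190, 286 and 243 in hearts and 798, 488 and 927 in atria (log2 difference 1.63, limma adjusted p = 0.046, called in 0 of 7 fits, up to 0.15 without atrial replicate 1). Each of these 4 genes separated the groups without overlap, and none kept its call when atrial replicate 1 was left out.

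Fgf12, which encodes an intracellular modulator of sodium channels, was 165, 166, 108 and 394 in hearts and 2220, 1670 and 886 in atria (log2 difference 3.00, limma adjusted p = 0.0162, 3 of 7 fits, up to 0.0892 without atrial replicate 1). Kcnj3 and Kcnj5 encode the 2 subunits of the acetylcholine-gated potassium channel. Kcnj3 was 137, 92.0, 373 and 162 in hearts and 3960, 2330 and 1300 in atria (log2 difference 3.77, SE 0.51, limma adjusted p = 0.00648, 6 of 7 fits, 0.0512 without atrial replicate 1). Kcnj5 was 256, 145, 341 and 288 in hearts and 1390, 801 and 1120 in atria (log2 difference 2.12, limma adjusted p = 0.0264, 2 of 7 fits, up to 0.118 without atrial replicate 1). Both subunits were thus above every heart in every atrial library. Stard10, a lipid transfer protein gene, had a log2 difference of 3.52 (limma adjusted p = 0.0393, 0 of 7 fits, up to 0.115 without atrial replicate 1).

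Some atrial genes did not pass the test. Myl4, which encodes the light chain of atrial and fetal muscle, was 9430, 6770, 10500 and 11300 in hearts and 17600, 13200 and 8010 in atria, so that the groups overlapped (log2 difference 0.40, limma adjusted p = 0.694). Gja5, the connexin-40 gene, had 1.77 (limma adjusted p = 0.0782). Nr2f2, which encodes the nuclear receptor COUP-TFII of atrial identity, was 2890, 2110, 4070 and 2040 in hearts and 6580, 5110 and 424 in atria (log2 difference -0.14, limma adjusted p = 0.953). Atrial replicates 1 and 2 lay above every heart for Nr2f2 and atrial replicate 3 below every heart, and without replicate 3 the difference was 1.12 (limma adjusted p = 0.0765).

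Whether a difference from the whole heart is also one between chambers was asked with the ventricles of the same pups. The atria minus ventricle difference of each pup was tested by limma, with the spread shared by 3 wild-type and 3 knockout pups, and 40 genes (0.258%) were higher in atria and 8 (0.0516%) in ventricles. Since atria and ventricles are set against the same 4 hearts, this is also the test of the difference between their stage differences. Of the 20 atrial chamber genes 10 were called higher in atria, and 0 in ventricles. The log2 differences were 5.91 for Sln (limma adjusted p = 0.000745), 5.18 for Myl7 (0.00175), 3.46 for Dkk3 (0.00375), 4.99 for Fgf12 (0.00375), 7.27 for Bmp10 (0.00376) and 4.62 for Myl4 (0.00376). They were 5.21 for Nppa (limma adjusted p = 0.0103), 3.15 for Tbx5 (0.0185), 7.65 for Mybphl (0.0438) and 4.03 for Gja5 (0.048). Myl4 and Gja5, which did not pass against the whole heart, thus passed against the ventricles. Myl4 was 448, 360 and 777 in the ventricles.

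These calls depended on pup 2. Without it, limma called 1 gene higher in atria and 1 in ventricles. Sln kept its call (6.01, limma adjusted p = 0.0144), whereas Bmp10 (7.69, 0.0509), Myl7 (5.16, 0.0509), Dkk3 (3.46, 0.0532), Fgf12 (4.84, 0.0532) and Nppa (4.99, 0.115) kept their size and had an adjusted p above 0.05. Myl2 was then called higher in ventricles, with a log2 difference of -10.66 (limma adjusted p = 0.000257) in place of -7.89 (0.0574). Without pup 1, 1 gene was called higher in atria and 0 in ventricles, without pup 3, 9 and 0, and with the 3 wild-type pups alone 13 and 0. For the potassium channel subunit Kcnj3 the difference between chambers was 2.96 (limma adjusted p = 0.0752) and for Kcnj5 1.32 (0.183), neither past the test. The panels of chamber genes show atria above both other tissues for Sln, Nppa, Myl7, Bmp10, Mybphl, Fgf12, Dkk3 and Tbx5.

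**Figure D3:**
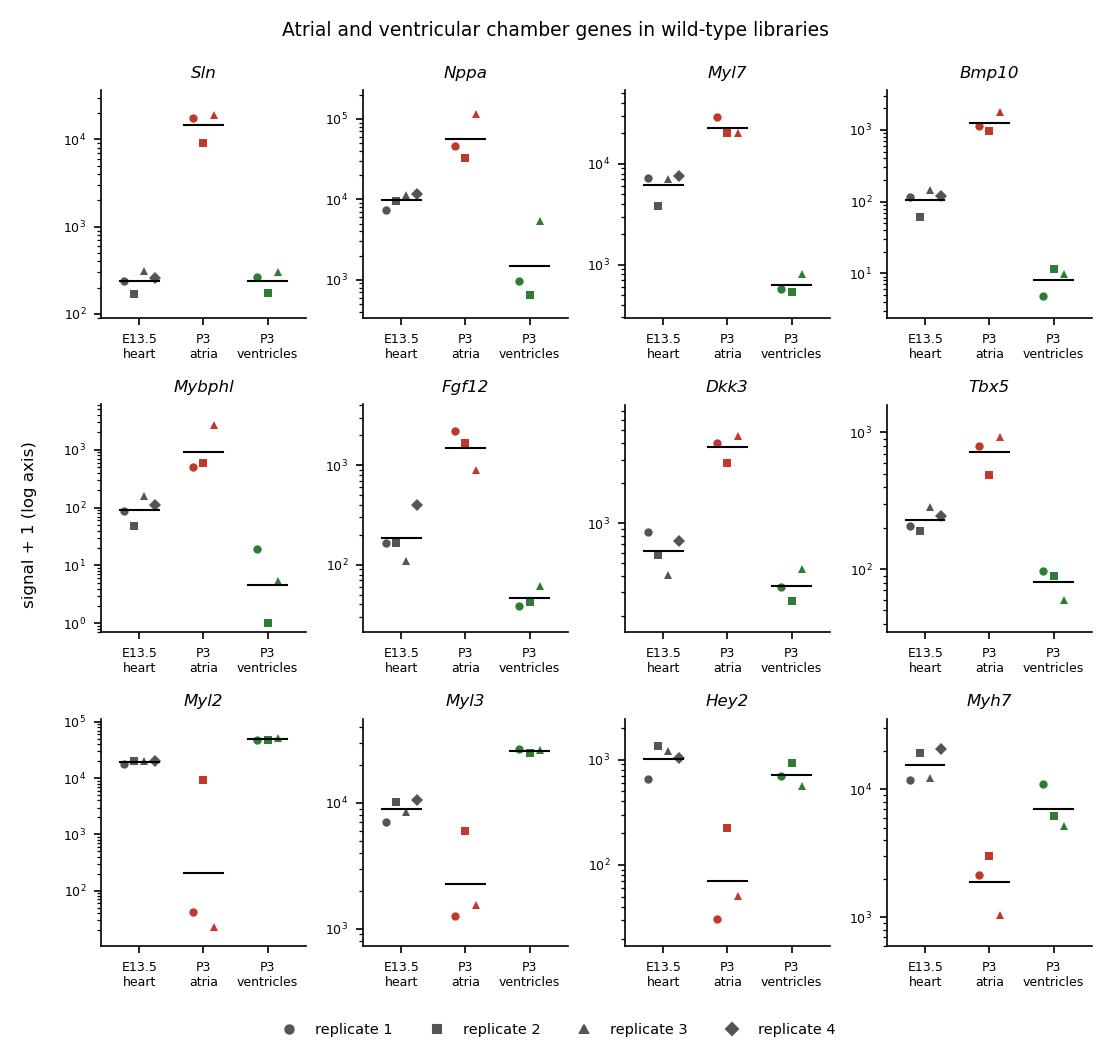
Signal + 1 (log axis) of 8 atrial genes and 4 ventricular genes in E13.5 hearts, P3 atria and P3 ventricles of wild-type mice, with symbols for replicates and lines for the geometric mean of signal + 1. For the 8 atrial genes all 3 atria lie above the hearts and the ventricles. For Myl2 atrial replicate 2 (9240) stands apart from the other atria (40.8 and 21.7).

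Of 16 tested ventricular chamber genes, 4 were called lower (Hey2, Cited1, Myh7 and Mpped2) and 1 higher (Fhl2), against 0.432% and 1.04% of all genes tested. In this list 14 had a negative difference, and the median was -2.43. Without atrial replicate 2, the library with ventricular transcripts, 8 were called lower and 0 higher, and the median was -2.78. Without atrial replicate 1, 1 was called lower and 0 higher. The summed signal of the list was 7936 to 32350 in atria, highest in atrial replicate 2, and 45780 to 64530 in hearts.

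Hey2 (chromosome 10, 30832359 to 30842801, minus strand), which encodes a repressor of atrial genes in ventricular muscle, was 650, 1350, 1200 and 1030 in hearts and 29.7, 223 and 49.4 in atria. Its log2 difference was -3.86 (SE 0.60, limma adjusted p = 0.015, 4 of 7 fits, 0.0664 without atrial replicate 1). Without atrial replicate 2 it was -4.70 (0.00335). The ventricles, at 692, 930 and 563, were near the hearts, and the difference between chambers was -3.34 (limma adjusted p = 0.0471, and -3.99 with 0.0877 without pup 2). Myl2 was 17700, 19800, 20000 and 20400 in hearts, and its log2 difference of -6.56 did not pass the test with all atria (limma adjusted p = 0.0683). Without atrial replicate 2 it was -9.30 (5.9e-06). The Iroquois factor gene Irx4 followed the same pattern, with 0, 26.5 and 0 in atria against 49.3 to 118 in hearts, and -4.58 (limma adjusted p = 0.081) became -6.18 (0.0233). For Myl3, the essential light chain gene, -1.98 (limma adjusted p = 0.081) became -2.69 (0.0158). In these genes atrial replicate 2 lay between the other atria and the hearts.

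Fhl2, which encodes a LIM domain protein of the Z-disc and nucleus, was 1 of the 2 positive genes among the 16 tested of its list. It was 846, 1420, 657 and 1070 in hearts, 3960, 4100 and 2880 in atria and 7090, 6770 and 8070 in ventricles (log2 difference in atria 1.91, limma adjusted p = 0.0264, 2 of 7 fits, up to 0.115 without atrial replicate 1). Both P3 tissues lay above all hearts. Pln, the phospholamban gene, was 5560, 9930, 6510 and 7810 in hearts and 3380, 8730 and 1150 in atria, with a difference of -1.17 (not called, limma adjusted p = 0.364), while between chambers it was -3.26 (limma adjusted p = 0.0471, and 0.0677 without pup 2). Cited1, which encodes a transcriptional coactivator of the embryonic heart, was 661, 722, 970 and 1310 in hearts and 112, 66.1 and 128 in atria (log2 difference -3.15, SE 0.38, limma adjusted p = 0.00383, 7 of 7 fits), and its ventricles, at 125, 188 and 69.3, were as low as the atria. Mpped2, a phosphodiesterase gene, had -2.87 (limma adjusted p = 0.0162, 4 of 7 fits, up to 0.0833 without atrial replicate 1).

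Among 8 isoforms of the fetal sarcomere only Myh7, the beta myosin heavy chain gene, passed the test. Myh7 (chromosome 14, 54970684 to 54994626, minus strand) was 11900, 19300, 12200 and 20500 in hearts and 2140, 2980 and 1030 in atria, and its mean fell from 16000 ± 4560 (SD, n = 4) to 2050 ± 979 (SD, n = 3). The log2 difference was -3.05 (SE 0.43, limma adjusted p = 0.00893, 6 of 7 fits, 0.0551 without atrial replicate 1). Ventricles lay between, at 10900, 6230 and 5160. Tnnt1, the slow skeletal troponin T gene, was 1480, 2070, 1770 and 1990 in hearts and 833, 756 and 235 in atria (-1.78, limma adjusted p = 0.0684, and -1.19 with 0.0289 without atrial replicate 3). Acta1 (-2.30), Myh7b (-2.64), Cnn1 (-2.13), Tnni1 (-0.68), Acta2 (-0.69) and Tagln (0.40) did not pass, with limma adjusted p from 0.14 (Acta1) to 0.77 (Tagln). Cnn1, the calponin gene of smooth and fetal muscle, was 15.1 and 15.0 in atrial replicates 1 and 2 and 400 in replicate 3, against 124 to 295 in hearts, and without replicate 3 it was -3.68 (limma adjusted p = 0.00928). The median of the 8 was -1.95, and -1.27 without atrial replicate 1, where 0 were called.

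Of 26 tested mature sarcomere genes, 1 was called higher and 0 lower, 22 were positive, and the median was 0.81. The called gene was Myom2, which encodes M-protein of the sarcomeric M-band. It was 123, 80.3, 182 and 95.8 in hearts and 779, 605 and 2870 in atria (log2 difference 3.26, limma adjusted p = 0.0182, 3 of 7 fits, up to 0.0664 without atrial replicate 1). Atrial replicate 3 was the highest, and without it 5 members were called higher with a median of 0.50.

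The calcium pump and release channel genes were higher in atria, and the 2 calsequestrin genes went in opposite directions. Of 26 calcium handling genes 4 were called higher (Sln, Atp2a2, Ryr2 and Casq2) and 1 lower (Casq1), with a median of 0.48. The shares over all genes tested were 1.04% and 0.432%. Atp2a2, the calcium pump gene SERCA2, was 6750, 8110, 9130 and 6750 in hearts and 39600, 31800 and 23200 in atria (log2 difference 2.01, SE 0.40, limma adjusted p = 0.0377). Ryr2, the calcium release channel gene, was 1420, 1280, 1350 and 1360 in hearts and 3440, 4260 and 3420 in atria (1.45, SE 0.27, limma adjusted p = 0.0342). The ventricles of the pups were in the same range as the atria, with Atp2a2 at 30200, 41000 and 31300 and Ryr2 at 4620, 5820 and 3890 in ventricles. Casq2, the cardiac calsequestrin gene, was 638, 1610, 951 and 703 in hearts and 3580, 2970 and 4050 in atria (1.94, SE 0.36, limma adjusted p = 0.0332). Atp2a2 and Ryr2 were called in 1 of 7 fits (without atrial replicate 3, limma adjusted p = 0.00105 and 0.00596) and Casq2 in 2, with an adjusted p of 0.134, 0.115 and 0.12 without atrial replicate 1.

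Casq1 (chromosome 1, 172209894 to 172219868, minus strand), the calsequestrin gene of skeletal muscle, was 339, 574, 834 and 570 in hearts and 26.4, 55.0 and 79.6 in atria. The hearts averaged 579 ± 202 (SD, n = 4) and the atria 53.7 ± 26.6 (SD, n = 3), a log2 difference of -3.47 (SE 0.47, limma adjusted p = 0.00661, 7 of 7 fits). The ventricles, at 89.3, 63.8 and 135, were also below every heart. Of 21 potassium channel genes 4 were called higher and 0 lower with a median of 1.62, against 1.04% and 0.432% of all genes tested called. The 4 were Kcnj3, Kcnj5 and the channel and receptor subunits of the ATP-sensitive channel. Kcnj11 was 44.6, 79.0, 35.3 and 35.8 in hearts and 197, 245 and 352 in atria (2.46, limma adjusted p = 0.0378, 0 of 7 fits, up to 0.115 without atrial replicate 1). Abcc8, its sulfonylurea receptor, was 25.1, 10.9, 13.3 and 39.8 in hearts and 162, 288 and 282 in atria (3.52, limma adjusted p = 0.0264, 2 of 7 fits, up to 0.0912 without atrial replicate 2). Without atrial replicates 1, 2 and 3 in turn 0, 1 and 3 potassium channel genes were called.

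Chrm2, which encodes the muscarinic receptor that opens the Kcnj3 and Kcnj5 channel, was the 1 called gene of 17 in adrenergic and muscarinic signalling. It was 85.0, 208, 273 and 196 in hearts and 1830, 1700 and 934 in atria, 7.81 times the mean of the hearts (log2 difference 3.02, SE 0.44, limma adjusted p = 0.0103, 5 of 7 fits, 0.0758 and 0.0541 without atrial replicates 1 and 2). All called genes separated the 3 atria from the 4 hearts, so that receptor and channel were higher in the same 3 libraries adds nothing to their calls. In the natriuretic peptide system 2 of 9 tested genes were called higher, Nppa and Corin, the gene of the protease that activates the peptide. Corin was 295, 424, 329 and 321 in hearts and 1520, 1140 and 761 in atria (1.69, limma adjusted p = 0.0372, 1 of 7 fits, up to 0.134 without atrial replicate 1). Nppb, which encodes the B-type peptide, was 398, 536, 888 and 634 in hearts and 276, 626 and 179 in atria (-0.90, limma adjusted p = 0.369), with overlapping groups. Of the receptor genes, Npr1 had 2.56, Npr2 1.13 and Npr3 0.97, and of the enzyme genes Pam had 1.47, Furin 0.69 and Mme -1.16, with limma adjusted p from 0.171 (Npr3) to 0.574 (Furin). Npr3 was 1.22 (limma adjusted p = 0.0495) and Pam 2.54 (0.00846) without atrial replicate 3. Nppc was at most 4.10 in any of the 7 libraries and was not tested.

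Of 31 genes of fatty acid uptake and oxidation 3 were called higher and 0 lower, against 1.04% and 0.432% of all genes tested. In this list 30 were positive, and the median was 0.97. For the same genes in ventricles, with the same hearts as controls, the median was 2.27. Acsl1, the acyl-CoA synthetase gene that traps fatty acids in the cell, was 77.4, 182, 113 and 63.5 in hearts and 817, 1360 and 969 in atria (log2 difference 3.34, SE 0.42, limma adjusted p = 0.0047, 7 of 7 fits). Acaa2, a thiolase gene of beta-oxidation, was 1140, 1510, 1000 and 1270 in hearts and 3120, 2990 and 3090 in atria (1.33, limma adjusted p = 0.0461, 1 of 7 fits, up to 0.138 without atrial replicate 1). Acadvl, the gene of the very long chain acyl-CoA dehydrogenase, had 1.92 (limma adjusted p = 0.0377, 0 of 7 fits, up to 0.115 without atrial replicate 1). All 3 were above the highest heart in each atrial library. Without atrial replicates 1, 2 and 3 in turn 1, 1 and 7 members were called, all higher.

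Among 27 glycolysis and lactate genes 2 were called lower and 1 higher, with a median of -0.25. Slc2a1, the gene of the glucose transporter GLUT1 of embryonic muscle, was 547, 391, 676 and 659 in hearts and 92.5, 60.9 and 140 in atria (log2 difference -2.58, SE 0.39, limma adjusted p = 0.0135, 5 of 7 fits, 0.0664 without atrial replicate 1). Pgam1, the ubiquitous phosphoglycerate mutase gene, was 3570, 3780, 3870 and 3270 in hearts and 1060, 867 and 943 in atria (-1.92, SE 0.27, limma adjusted p = 0.00893, 7 of 7 fits). Pdk4, whose product holds pyruvate back from the mitochondria, was 70.6, 190, 114 and 153 in hearts and 566, 584 and 417 in atria (2.05, limma adjusted p = 0.0389, 1 of 7 fits, up to 0.135 without atrial replicate 1). Of 16 tested regulators of metabolism 2 were called higher. Klf15, a factor gene that responds to glucocorticoids, was 0.789, 0, 4.41 and 2.84 in hearts and 73.6, 59.7 and 43.7 in atria (4.57, limma adjusted p = 0.0461, 0 of 7 fits, up to 0.161 without atrial replicate 1). Prkag2, a subunit gene of AMP-activated kinase, had 3.25 (limma adjusted p = 0.0303, 1 of 7 fits, up to 0.106 without atrial replicate 1).

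Enzymes that have a muscle and a ubiquitous form were counted separately. Of 17 muscle forms 5 were called higher (Ckmt2, Cox8b, Atp2a2, Mb and Ckm) and 0 lower, with a median of 1.61 and 16 positive. Of 15 tested ubiquitous forms 2 were called lower (Pgam1 and Slc2a1) and 0 higher, with a median of -0.53. Over all genes tested, 1.04% were called higher and 0.432% lower. Ckmt2, the sarcomeric mitochondrial creatine kinase gene, was 54.7, 41.5, 72.2 and 15.0 in hearts, 307, 836 and 504 in atria and 2250, 2150 and 3860 in ventricles. Its log2 difference was 3.63 (SE 0.59, limma adjusted p = 0.0176, 4 of 7 fits, 0.0784 without atrial replicate 2), and the difference between chambers, as atria minus ventricles, was -2.39 (limma adjusted p = 0.049, and -2.90 with 0.0855 without pup 2). Cox8b, a muscle subunit gene of cytochrome oxidase, was 123, 370, 201 and 286 in hearts and 1540, 1980 and 980 in atria (2.66, limma adjusted p = 0.0162, 4 of 7 fits, up to 0.0875 without atrial replicate 1). Mb, the myoglobin gene, was 533, 998, 570 and 661 in hearts, 1400, 3590 and 4000 in atria and 15900, 13500 and 15000 in ventricles (2.02 in atria, limma adjusted p = 0.0397, 1 of 7 fits, up to 0.109 without atrial replicate 2). Ckm, the cytosolic muscle creatine kinase gene, had 3.45 (limma adjusted p = 0.0461, 0 of 7 fits, up to 0.116 without E13.5 replicate 4). For Ckmt2 and Mb the atria thus lay between the hearts and the ventricles. The same order held for the called genes Acsl1, Acadvl, Acaa2, Pdk4 and Cox8b, while for Ckm and Atp2a2 atria and ventricles overlapped.

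The muscle forms that did not pass were Slc2a4 (3.55), Eno3 (1.67), Ak1 (1.65), Fabp3 (1.61), Cpt1b (1.42), Phka1 (1.07), Pgam2 (1.03), Cox7a1 (0.98), Slc25a4 (0.93), Pygm (0.89), Cox6a2 (0.72) and Ldhb (-0.09), with limma adjusted p from 0.0557 (Eno3) to 0.919 (Ldhb). Ubiquitous forms that did not pass included Pygb (1.52), Cpt1a (1.39), Fabp5 (0.34), Slc25a5 (-0.03), Phka2 (-0.39), Cox7a2 (-0.47), Ldha (-0.53), Ckb (-0.57), Cox8a (-0.75), Pygl (-0.96), Cox6a1 (-0.97) and Eno1 (-1), with limma adjusted p from 0.112 (Cox6a1) to 0.977 (Slc25a5). Ckmt1 and Atp2a3 were too low to be tested. Without atrial replicate 2, 0 muscle forms were called with a median of 1.38, without atrial replicate 1, 1 with 1.81, and without atrial replicate 3, 6 with 1.27, and leaving out 1 heart left 1 or 2 called. Of 36 respiratory complex I genes 0 were called by limma in either direction, with a median of 0.06.

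**Figure D4:**
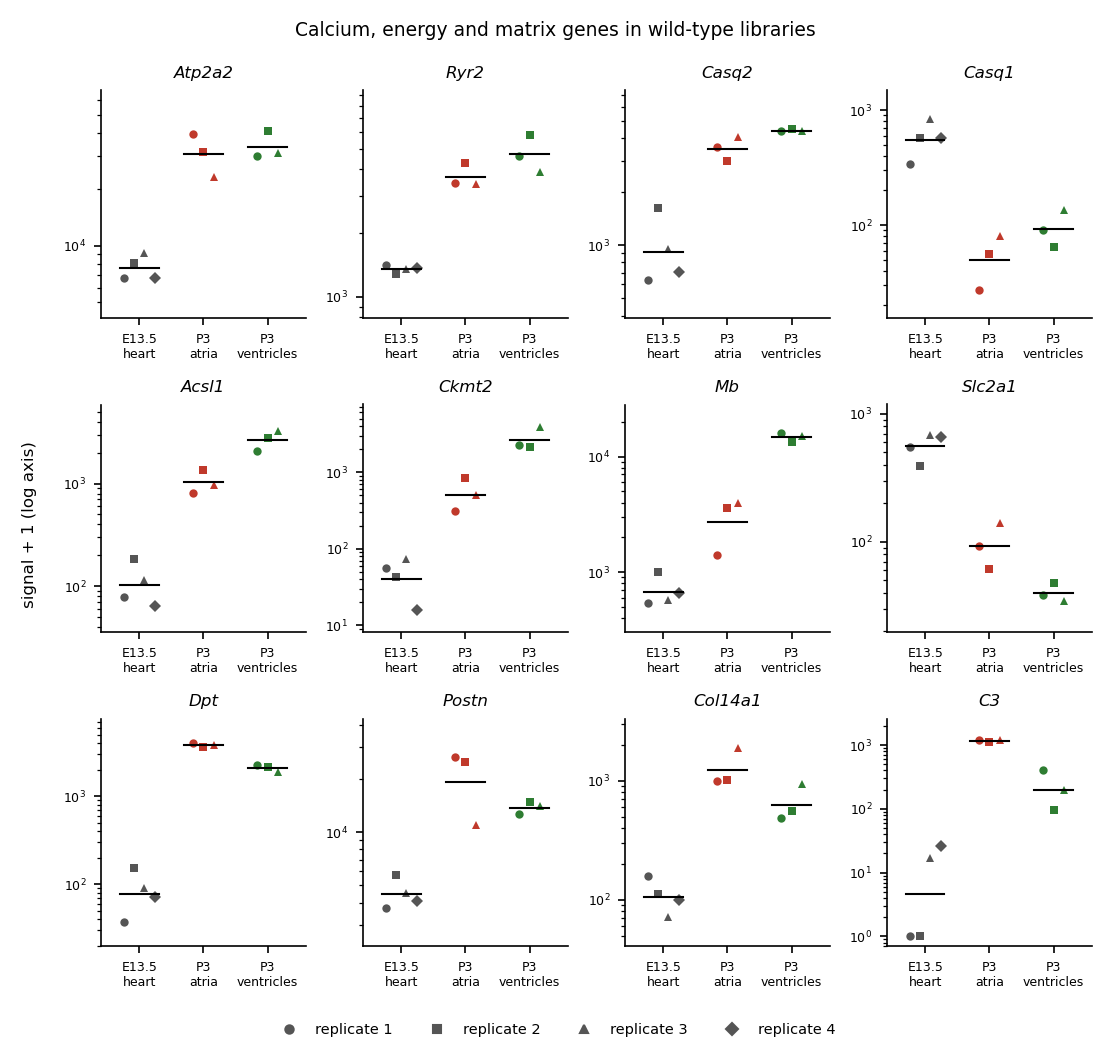
Signal + 1 (log axis) of 4 calcium store genes, 4 energy genes and 4 matrix or complement genes in E13.5 hearts, P3 atria and P3 ventricles of wild-type mice, with symbols for replicates and lines for the geometric mean of signal + 1. Casq1 and Slc2a1 are lower in every atrium than in every heart, and the other 10 genes are higher. Acsl1, Ckmt2, Mb and, by less, Casq2 are higher still in the ventricles.

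Of 18 tested fibroblast markers 5 were called higher (Dpt, Dcn, Postn, Col3a1 and Mfap5) and 0 lower, 17 were positive, and the median was 1.67. In 14 the groups did not overlap, with higher atria, against 8.3% of all genes tested. The summed signal of the 20 listed markers was 97660 to 104300 in atria and 35070 to 39090 in hearts. Dpt (chromosome 1, 164796644 to 164824266, plus strand), the gene of the matrix protein dermatopontin, was 36.5, 154, 89.2 and 71.1 in hearts and 4040, 3600 and 3810 in atria. The mean rose from 87.7 ± 49.3 (SD, n = 4) to 3820 ± 223 (SD, n = 3), 43.6 times as high (log2 difference 5.61, SE 0.44, limma adjusted p = 0.000208, 7 of 7 fits). Dcn, the decorin gene, was 1310, 1150, 641 and 939 in hearts and 4540, 5010 and 5770 in atria (2.38, SE 0.33, limma adjusted p = 0.00698, 7 of 7 fits). The 3 atria lay close together for both genes, and the ventricles also lay above every heart, at 2280, 2140 and 1870 for Dpt and 3640, 4110 and 4200 for Dcn.

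Postn, the periostin gene, was 3750, 5730, 4510 and 4090 in hearts and 26400, 24700 and 10900 in atria (2.11, limma adjusted p = 0.0372, 1 of 7 fits). Col3a1 was 7030, 7140, 6270 and 7390 in hearts and 27700, 18600 and 36400 in atria (1.93, limma adjusted p = 0.0397, 1 of 7 fits). Postn and Col3a1 had an adjusted p of 0.134 each without atrial replicate 1 and 0.000756 and 0.00336 without atrial replicate 3. Mfap5, a microfibril gene, had 4.62 (limma adjusted p = 0.0461, 1 of 7 fits, up to 0.126 without atrial replicate 1). Aspn, the asporin gene, was 101, 246, 117 and 172 in hearts and 4090, 3790 and 1060 in atria (4.07, SE 0.51, limma adjusted p = 0.00415, 7 of 7 fits). Postn and Aspn were lowest in atrial replicate 3 and Col3a1 highest there, and all atria were above all hearts. Without atrial replicates 1, 2 and 3 in turn 2, 2 and 7 fibroblast markers were called, all higher.

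Of 29 collagen chain genes 2 were called higher, Col3a1 and Col14a1, and 1 lower, Col2a1, with a median of 0.81. The shares over all genes tested were 1.04% and 0.432%. Col14a1, whose product binds collagen fibrils, was 158, 112, 71.0 and 99.5 in hearts and 996, 1010 and 1890 in atria (3.54, SE 0.39, limma adjusted p = 0.00294, 7 of 7 fits). Col2a1, the cartilage collagen gene that is also made in embryonic cushions and valves, was 163, 106, 316 and 139 in hearts and 0, 0 and 2.94 in atria (-6.72, SE 0.82, limma adjusted p = 0.00415, 7 of 7 fits). Col2a1 was at 0 in all 3 ventricles, so that every P3 library was below every heart. Of 19 elastic fibre genes 2 were called higher, Mfap5 and Eln. Eln, the elastin gene, was 820, 830, 529 and 673 in hearts and 1530, 4670 and 8960 in atria (2.51, limma adjusted p = 0.0399, 2 of 7 fits, up to 0.11 without E13.5 replicate 3). Its atria spread widely, from 1530 in replicate 1 to 8960 in replicate 3, above all hearts. Igfbp7, which encodes a secreted insulin-like growth factor binding protein, was 122, 76.1, 150 and 87.5 in hearts and 1530, 1820 and 1170 in atria (3.81, SE 0.36, limma adjusted p = 0.000903, 7 of 7 fits).

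Markers of other cell types gave fewer calls. Of 20 epicardial markers 2 were called higher and 15 were positive, with a median of 0.71. Their summed signal was 4724 to 5753 in atria and 2292 to 2565 in hearts. C3, the complement gene, was 0, 0, 15.8 and 25.4 in hearts and 1220, 1120 and 1180 in atria (log2 difference 8.00, SE 1.15, limma adjusted p = 0.00964, 5 of 7 fits, 0.0749 and 0.0541 without atrial replicates 1 and 2). C3 was also higher in atria than in ventricles by 2.57 (limma adjusted p = 0.049, and 2.09 with 0.259 without pup 2). Msln, the mesothelin gene, had 4.32 (limma adjusted p = 0.0384, 1 of 7 fits, up to 0.124 without atrial replicate 1), while Wt1 and Tbx18, the defining epicardial factors, had -0.25 and -0.42. Of 17 smooth muscle and pericyte markers 2 were called higher. Rgs5 was 324, 63.4, 159 and 145 in hearts and 576, 1130 and 1330 in atria (2.68, limma adjusted p = 0.0372, 1 of 7 fits, up to 0.101 without atrial replicate 2). Higd1b was listed at 0 in all 4 hearts and at 46.8, 65.3 and 27.5 in atria (limma adjusted p = 0.0317, 1 of 7 fits, up to 0.124 without atrial replicate 1). Both are pericyte genes. Of 21 endothelial and 18 macrophage markers limma called 0, with medians of 0.78 and 0.79. The summed macrophage signal was 1955 to 2630 in atria and 1090 to 1303 in hearts, and the summed endothelial signal 6227 to 9272 and 4221 to 4480. The part of these cell types in the results above was not tested.

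Genes of the cushions, the outflow tract and Notch signalling gave few calls. Rspo3, which encodes a Wnt-enhancing R-spondin, was 235, 218, 382 and 196 in hearts and 8.76, 5.47 and 16.9 in atria (log2 difference -4.58, SE 0.57, limma adjusted p = 0.00415, 7 of 7 fits), the 1 called gene of 12 of the outflow tract. Prrx2, a mesenchymal homeobox gene, had -3.51 (limma adjusted p = 0.0499, 1 of 7 fits, up to 0.133 without E13.5 replicate 3), the 1 of 23 cushion and valve genes. In the ventricles of the pups Rspo3 was 20.9, 118 and 43 and Prrx2 9.48, 15.1 and 0, also below every heart. Of 16 Notch pathway genes Hey2 was lower and Heyl higher (3.07, limma adjusted p = 0.0412, 0 of 7 fits, up to 0.124 without atrial replicate 1). Of 9 endocardial genes Tmem100, a target of BMP signalling, was higher (2.59, limma adjusted p = 0.0384, 2 of 7 fits, up to 0.147 without atrial replicate 1).

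Of 12 tested genes of the Lin28, Igf2bp, Hmga and Sox group 4 were called lower and 0 higher, with a median of -1.78. The shares over all genes tested were 0.432% and 1.04%. Hmga2 (chromosome 10, 120361275 to 120476469, minus strand), which encodes a chromatin protein of fetal progenitors, was 803, 719, 775 and 831 in hearts and 65.9, 8.85 and 16.6 in atria. Means were 782 ± 47.9 in hearts (SD, n = 4) and 30.5 ± 31.0 in atria (SD, n = 3), a log2 difference of -5.11 (SE 0.58, limma adjusted p = 0.003, 7 of 7 fits). Sox11, a transcription factor gene of embryonic mesenchyme, was 1070, 1210, 1470 and 913 in hearts and 220, 201 and 90.0 in atria (-2.85, SE 0.38, limma adjusted p = 0.00605, 7 of 7 fits). Igf2bp2, which encodes a fetal RNA-binding protein, had -2.01 (limma adjusted p = 0.0393, 1 of 7 fits, up to 0.111 without E13.5 replicate 1). Lin28b, whose product blocks let-7 microRNAs, was 67.9, 46.7, 217 and 90.7 in hearts and 9.04, 0 and 4.23 in atria (-4.59, limma adjusted p = 0.0443, 1 of 7 fits, up to 0.127 without E13.5 replicate 3). In ventricles Hmga2 was as low as in atria, at 52.7, 56.5 and 13, while Lin28b was 45.3, 63.2 and 29.8, between the 2 groups.

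Of 20 imprinted growth genes 4 were called lower and 0 higher, against 0.432% and 1.04% of all genes tested. The median was -0.71. Cdkn1c (chromosome 7, 143458339 to 143461050, minus strand), the maternally expressed gene of the cell cycle inhibitor p57, was 5060, 3120, 4150 and 4030 in hearts and 577, 436 and 306 in atria (log2 difference -3.24, SE 0.32, limma adjusted p = 0.00138, 7 of 7 fits). Mest, a paternally expressed gene, was 9730, 12600, 11500 and 11400 in hearts and 2400, 3000 and 2310 in atria (-2.14, SE 0.32, limma adjusted p = 0.0119, 4 of 7 fits, up to 0.0833 without atrial replicate 1). Grb10, an adaptor gene that restrains growth factor receptors, was 4070, 5300, 4460 and 4380 in hearts and 1240, 1510 and 1300 in atria (-1.75, limma adjusted p = 0.0174, 2 of 7 fits, up to 0.0947 without atrial replicate 1). Dlk1 had -2.60 (limma adjusted p = 0.0474, 0 of 7 fits, up to 0.133 without E13.5 replicate 1). The 3 atria lay close together for Mest and Grb10, far below the lowest heart, and the ventricles were also below the hearts, at 2710, 2730 and 3130 for Mest. Igf2, H19 and Peg3 did not pass, with -0.41, -1.08 and 0.12.

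Genes of cell division mostly had lower values in atria, though few passed the test. Of 42 mitosis and cytokinesis genes 2 were called lower and 0 higher, only 1 was positive and the median was -1.20. In 24 the groups did not overlap, all with lower atria. Over all genes tested, 0.432% were called lower, and in 7.64% the groups did not overlap with lower atria. Of 39 replication genes limma called 0, only 3 were positive and the median was -0.89, and in 12 the groups did not overlap. Birc5, which encodes the chromosomal passenger protein survivin, was 1360, 1100, 1370 and 1450 in hearts and 220, 252 and 262 in atria. Its mean was 1320 ± 152 in hearts (SD, n = 4) and 245 ± 21.7 in atria (SD, n = 3), a log2 difference of -2.42 (SE 0.28, limma adjusted p = 0.00308, 7 of 7 fits). Its ventricles, at 605, 793 and 785, lay between. Ube2c, a ubiquitin-conjugating enzyme gene of mitotic exit, was 806, 928, 933 and 556 in hearts and 109, 306 and 235 in atria (-1.98, limma adjusted p = 0.0393, 1 of 7 fits, up to 0.126 without atrial replicate 1). Without atrial replicates 1, 2 and 3 in turn 1, 2 and 7 mitosis genes were called, all lower. Among 19 tested histone genes 1 was called lower, Hist1h2ap (-1.78, limma adjusted p = 0.0372, 1 of 7 fits, up to 0.126 without atrial replicate 1), whose near-identical copies can share reads.

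Of 81 cytosolic ribosomal protein genes limma called 0 in either direction, and the median was -1.18. The groups nevertheless did not overlap in 71, all with lower atria, against 7.64% of all genes tested. Their summed signal was 263400 to 369400 in hearts, 176700 and 195900 in atrial replicates 1 and 2 and 83280 in atrial replicate 3. The median was -0.77 without atrial replicate 3, with 13 called lower. Scaling to equal totals gave 16 called lower, and a fit with the spread of all 20 libraries gave 59. Of 13 mitochondrially encoded transcripts limma called 0, with a median of 0.02, which hid a split among the atria. Their summed signal was 3037000 and 3058000 in atrial replicates 1 and 2 and 539000 in replicate 3, against 1451000 to 1856000 in hearts. Without replicate 3 the median was 0.81 and 7 were called higher.

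Traces of neighbouring tissues were checked from their markers. Ahsg, a liver gene, was 112, 33.2 and 122 in atria and at most 3.46 in hearts (log2 difference 5.75, limma adjusted p = 0.0309, 1 of 7 fits, up to 0.127 without atrial replicate 1), while Alb, the albumin gene, had -0.23, so that liver markers did not move together. Myh8, the perinatal skeletal myosin gene, was 17.7, 16.7, 9.73 and 49.1 in hearts and 181, 129 and 203 in atria (3.04, limma adjusted p = 0.049, 0 of 7 fits, up to 0.161 without atrial replicate 1). The skeletal muscle markers as a list went the other way. Of 8 tested, 3 were positive, 1 was called higher and 0 lower, and the median was -1.25. Their summed signal was 266.8 to 408.6 in atria and 405.6 to 941.2 in hearts. Summed lung epithelium markers were 427 in atrial replicate 3 and 369 in E13.5 replicate 1, and at most 28.1 in the other 5 libraries. Summed adipocyte and brown fat markers were 1905 to 4272 in atria, highest in replicate 3, and 552 to 1365 in hearts. The part of these tissues in the results was not tested.

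Dissected hearts of knockout animals gave the same comparison in 7 other libraries, 3 of P3 atria and 4 of E13.5 hearts, some of them from the same litters, which share no library with the wild types. There limma called 213 genes higher in atria (1.37%) and 119 lower (0.768%). Of the 161 genes called higher in wild types, 154 were higher and 86 called in knockouts, and of the 67 called lower, 64 were lower and 30 called, with 0 called in the opposite direction. Mitochondrially encoded transcripts made up 3.55% of the signal of knockout atrial replicate 3, against 22.6% and 24.2% in knockout atrial replicates 1 and 2. It thus departed in the same direction as wild-type atrial replicate 3 (10.4%). The part of this shared departure in the agreement was not tested. Sln was 316, 301, 380 and 313 in knockout hearts and 9140, 5740 and 10100 in knockout atria (log2 difference 4.63, limma adjusted p = 4.47e-07). Hba-x had -11.12 (limma adjusted p = 6.4e-08), Dpt 4.42 (5.76e-06), Bmp10 4.54 (4.36e-06), Igfbp7 3.86 (3.41e-06) and Cdkn1c -3.05 (6.47e-05). These knockout libraries lack Creld1 in the myocardium by their labels, so they are not replicates of the wild types. Their Creld1 signal was 70.9, 7.48, 38.4 and 4.64 in hearts and 23.1, 26.6 and 82.4 in atria. Both ranges overlapped those of the wild types.

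Whether the difference between atria and hearts itself differed by genotype was tested as an interaction in limma over the 14 libraries, and 0 genes were called (0% of 15500, smallest adjusted p = 0.0739, with 654 at an unadjusted p under 0.05). With the same replicate numbers as a block within each stage 3 were called, Casq1, Nppb and Mest. Without atrial wild-type replicate 3 6 were called, Casq1, Nppb, Lum, Spidr, Zfp455 and Mest, and without atrial wild-type replicate 2, 1, Nppb. With the spread of all 20 libraries 1 was called, Mest. Casq1 was 26.4, 55.0 and 79.6 in wild-type atria and 424, 540 and 1630 in knockout atria, where it did not differ from knockout hearts past the test (0.54, limma adjusted p = 0.653). Mest was 2400, 3000 and 2310 in wild-type atria and 9460, 13500 and 12100 in knockout atria (0.21 against knockout hearts, limma adjusted p = 0.787). For both genes the wild-type atria lay below every heart, and the knockout atria lay in or above the range of the hearts of both genotypes. Nppb was 276, 626 and 179 in wild-type atria and 2770, 5150 and 2800 in knockout atria (2.88 against knockout hearts, limma adjusted p = 0.000845). The interaction was -4.01 for Casq1, -3.78 for Nppb and -2.35 for Mest on the log2 scale, each with a limma adjusted p of 0.0739.

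**Figure D5:**
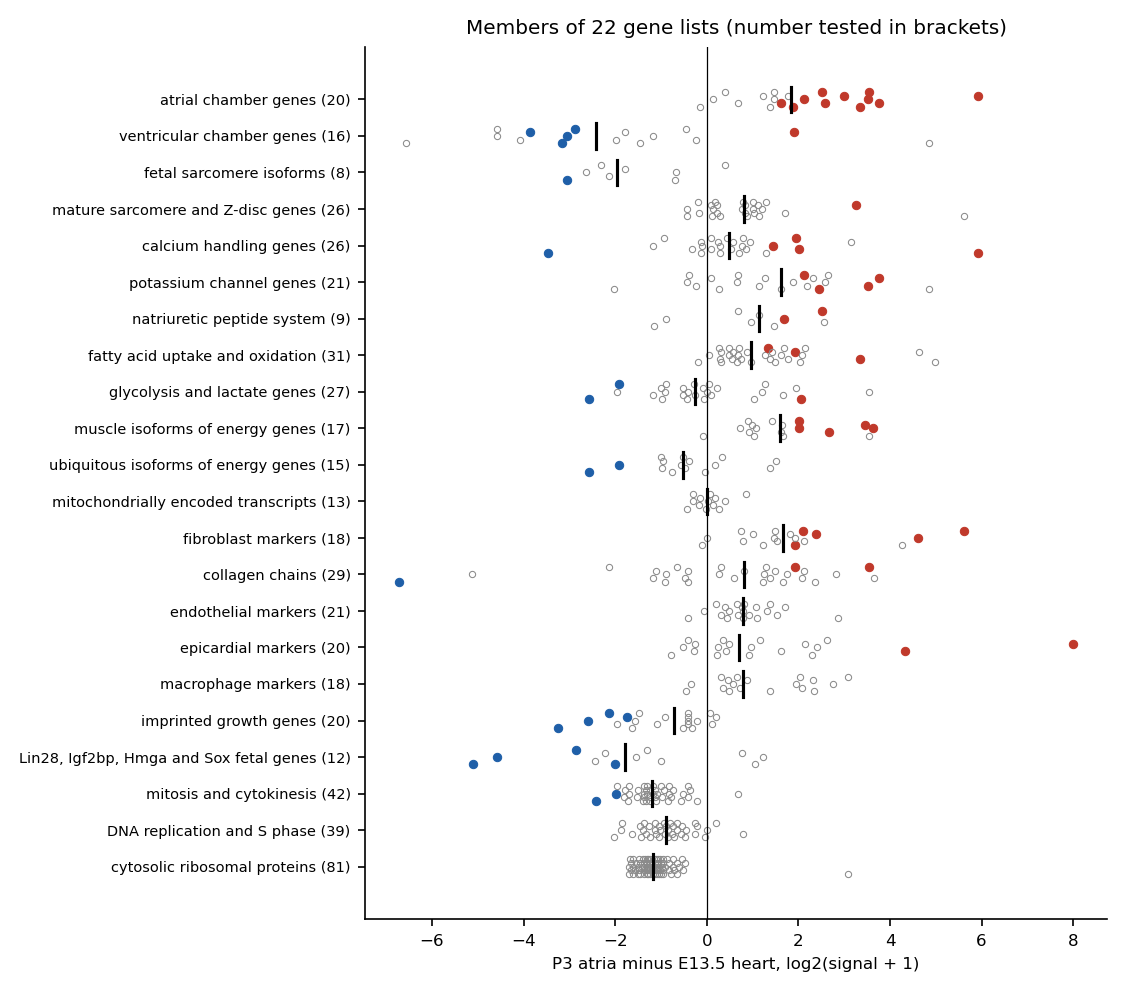
Log2 difference between P3 atria and E13.5 hearts (horizontal axis) for the tested members of 22 gene lists, with members called higher in red, called lower in blue, the others as open circles and the list median as a black bar. The medians run from -2.43 for ventricular chamber genes to 1.83 for atrial chamber genes, and ribosomal protein genes (median -1.18) lie together below 0 with no member called.

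Reads of some genes cannot be assigned with certainty. SMART-Seq2 does not mark the strand, and in GENCODE M21 exons of Nppa overlap those of Gm13054 on the other strand, Myh7 those of Mhrt, Casq1 those of Gm17224, Mest those of Copg2, Cdkn1c those of Gm44732, Kcnj3 those of Gm26794, Acadvl those of Dvl2, Acsl1 those of Gm45244, Rspo3 those of Gm48159, Mb those of Gm49540, Ube2c those of Tnnc2 and Dbp those of Sphk2. The values of these genes may include reads of the partner.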

How the data were processed

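RNA from whole hearts, atria or ventricles of single C57BL/6N mice was made into SMART-Seq2 libraries, per the labels' protocols. Tools listed in the submitters' processing notes are DESeq2, STAR 2.5.1 and bcl2fastq 2.2, with mm10 as the genome build. How reads were counted, and over which annotation, is not given in the sources used here. A single table was deposited by the authors, holding a normalized linear signal per gene, whose median ratio to a common reference is 1.04 in every library. Whole reads were recovered for only 45.1% to 64.6% of the low values above 0 (within 0.001 of a whole number), so no count test was run. Depth is therefore an estimate. The most frequent value above 0 among processed pseudogenes, snoRNA, miRNA and unconfirmed genes of a library was taken as a single read. Signal is not per length and levels are not compared between genes.

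Here log2(signal + 1) was tested with limma 3.58.1 (R 4.3.3, variance trend, two-sided, Benjamini-Hochberg adjusted p under 0.05), for genes with a signal of at least 10 in at least 3 of the 7 libraries. Folds on this scale understate the change of low genes. The procedure was tested on simulated data. P-values measure the spread between these animals only. Atrial and heart replicate numbers mark different litters, so they pair nothing: same-numbered deviations correlated at -0.0498, 0.00898 and -0.082. Members and lists were chosen with earlier results of these data known. Genes picked by rule were up to 12 per direction with the largest folds among called genes at or above the median level. Further picks were up to 6 called members per list, all members of short lists (fetal sarcomere, globins, natriuretic peptides, isoform pairs) and tissue markers. Of the 12 per direction, Fndc1, Pi15, Mgll, Frmd5, Gtsf1, Rimklb, Atp7b and Prelid2 are not described above. Erythroid, epicardial, imprinted and liver genes that were not called, Nr2f2 and Irx4, and the genes of the closing observations, were chosen after their values were seen. Alternatives were pseudocounts, filters, scalings, GC removal, other fits of the spread and leaving out each library. Some list members are not reported here.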

Additional observations from a re-analysis of the deposited data

Results flagged for a closer look

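Among the 4 E13.5 hearts, 1 library lay far from the other 3 for 10 of the genes examined. Most genes named in this report were examined, and chance alone gives about 1 in 20 groups. Of the 10, Xist and Ddx3y are sex-linked and mark the same heart. The others are therefore not read as an excess. The values of Ahsg, Ckmt1, Sod3 and Dbp lie near a signal of 0. E13.5 replicate 2 was lowest for Myl7 (3800), highest for Ahsg (3.46), and apart for Xist (17.8) and Ddx3y (487). E13.5 replicate 3 was highest for Acta1 (848) and lowest for Phka1 (5.04). E13.5 replicate 1 was lowest for Cox7a2 (5420) and highest for Ckmt1 (1.61) and Sod3 (0.76). E13.5 replicate 4 was highest for Dbp (2.71).

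The difference from the hearts was not the same in atria and ventricles for 18 named genes, by limma's test within pups. As atria minus ventricles on the log2 scale, it was 5.91 for Sln, 7.27 for Bmp10, 5.21 for Nppa, 5.18 for Myl7, 4.62 for Myl4, 3.15 for Tbx5, 7.65 for Mybphl, 4.99 for Fgf12, 3.46 for Dkk3 and 4.03 for Gja5. It was 2.9 for Npr3, 2.57 for C3, 7.29 for Sbk2 and 3.79 for Adamts8. Ventricles were higher for Ckmt2 (-2.39), Hey2 (-3.34), Myl3 (-3.53) and Pln (-3.26). Without pup 2, whose libraries differ in sex-linked transcripts, Sln alone of these 18 kept an adjusted p under 0.05 (limma adjusted p = 0.0144).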

How the results depend on the processing

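Against 161 higher and 67 lower genes, a pseudocount of 5 gave 251 and 107, the spread of all 20 libraries 558 and 466, no variance trend 98 and 35, Xist as a covariate 26 and 17, averaged E13.5 littermates 78 and 26, and leaving out atrial replicates 2 and 3 together 9 and 41. Lower genes were 136 with scaling to equal totals and 144 with the GC trend removed. The libraries of 2018 alone gave 0 and 0 by limma (807 at an unadjusted p under 0.05), with 2 residual degrees of freedom. Leaving out 1 library gave 17 to 196 higher and 19 to 169 lower. The replicate block, which pairs unrelated litters, gave 25 and 13. The count of 48 genes that differ between chambers was 18 without a trend, 13 in the 3 wild-type pups alone and 1 to 9 without 1 pup. The genotype interaction gave 0, but 1 with all 20 libraries, 3 with the replicate block within each stage, and 0 to 6 without 1 library. Where fewer samples or another estimate of the spread is not the construction itself, the cause was not tested. Unknown true counts limit what can be said of genes near a signal of 0.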

Other observations

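Genes outside the lists also separated the groups. Sbk3, a kinase gene, was listed at 0 in all 4 hearts and at 1110, 555 and 797 in atria (limma adjusted p = 0.000208, called in all 7 fits without 1 library), and at 23.5, 2.97 and 60.9 in ventricles. Its neighbour Sbk2 (chromosome 7, 4940512 to 4964406, minus strand, next to Sbk3 at 4965260 to 4971168) was 0, 0, 55.1 and 4.06 in hearts and 513, 273 and 802 in atria (limma adjusted p = 0.0332, up to 0.126 without atrial replicate 1). For Sbk3, at 0 in every heart, atria above all hearts were set by the filter. Sbk2 was also above every heart in every atrial library. Slitrk5, a neuronal transmembrane protein gene, was 236, 246, 381 and 267 in hearts and 6.38, 4.42 and 1.96 in atria (log2 difference -5.82, limma adjusted p = 0.00144, 7 of 7 fits). Bmp7, a growth factor gene, was 270, 296, 228 and 297 in hearts and 21.4, 8.34 and 15.7 in atria (-4.17, limma adjusted p = 0.00383, 7 of 7 fits), opposite in direction to Bmp10.

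Of 17 genes of thyroid and glucocorticoid signalling 2 were called higher, Klf9 and Klf15, and of 19 clock genes 1, Dbp. Klf9, a glucocorticoid-responsive factor gene, was 13.7, 53.6, 37.4 and 31.4 in hearts and 230, 184 and 238 in atria (2.78, limma adjusted p = 0.0406, 0 of 7 fits, up to 0.147 without atrial replicate 1). Dbp, a clock output gene, was at most 2.71 in hearts and 56.3, 58.7 and 186 in atria (5.96, limma adjusted p = 0.023, 1 of 7 fits, up to 0.0903 without atrial replicate 1). The ventricles of the same pups were also above the hearts, at 244, 153 and 181 for Klf9 and 40.1, 69 and 46.2 for Dbp. The hour of dissection is not given in the labels.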
